A study of Homo sapiens with 21 samples.

Results

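A set of 82 genes was examined that stood high in hTERT-HPNE cells 4 h after hydrogen peroxide (H2O2) but, by the limits below, not at 24 h. The members were chosen by their own values, and they are described here as genes rising transiently in H2O2. Expression was given as rLog values, a log2 scale on which DESeq2 pulls the differences of genes with few reads toward 0. A member had a mean of 7 or more over the 21 libraries, a group mean in H2O2 at 4 h more than 0.58 above untreated (1.49-fold), and a group mean at 24 h less than 0.29 above it (1.22-fold). Of 23368 genes listed, 19694 varied between libraries and were tested, and 10026 had a mean of 7 or more. Among these, 188 lay more than 0.58 above untreated at 4 h, of which 96 were still 0.29 or more above it at 24 h. Another 10 belonged to families of early response and heat-shock genes that the rule left out by name, namely DUSP1, DUSP16, FOSB, HSPA1B, HSPA5, HSPB8, JUNB, JUND, KLF10 and NR4A1. The 4 h and 24 h differences in H2O2 are therefore given as a description, with no test. No lower limit was set at 24 h, where the members ran from -0.53 to 0.286 relative to untreated.

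The libraries were polyadenylated RNA from hTERT-HPNE, a line of human pancreatic cells immortalised with the catalytic subunit of telomerase. There were 7 groups of 3 biological replicates. Untreated cells were collected at 0 h, cells given 300 µM H2O2 at 4 h, 8 h and 24 h, and cells given 400 ng/ml neocarzinostatin (NCS) at 4 h, 8 h and 24 h. NCS is a radiomimetic drug that cuts both strands of DNA, whereas H2O2 is an oxidant that damages protein, lipid and DNA. All cells grew with epidermal growth factor (EGF), serum and puromycin, and the medium was renewed when the agents were added. No untreated library of 4 h, 8 h or 24 h was analysed here, so for a difference from untreated the agent and the time since fresh medium cannot be told apart. The H2O2 and NCS libraries of the same hour share that history. The line was checked against marker genes. NES (nestin) had a mean of 12.03, VIM (vimentin) of 17.03 and TERT, which the transgene encodes, of 14.04. The markers of pancreatic duct epithelium were mixed. KRT7 had a mean of 6.93 and SOX9 of 6.07, whereas KRT19 stood at 0.60, CFTR at -1.34 and EPCAM at -1.76, near the low end of the table, whose lowest value is -2.31.

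Early response genes are transcribed within minutes to hours of a signal from preexisting factors, without new protein. Growth factor receptors, the MAP kinases ERK, JNK and p38, and the kinases that phosphorylate eIF2α pass such signals to factors of the AP-1, CREB/ATF and ETS families. Many of the transcripts are short lived, since AU-rich elements in their 3′ untranslated regions (3′ UTRs) recruit decay factors, and several of the products are inhibitors that close the same pathway.

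The members' median difference from untreated in H2O2 was 0.75, 0.32 and 0.03 at 4 h, 8 h and 24 h, where the median of all tested genes was 0.00 at each time. As these are bulk libraries, fewer cells of a kind and less RNA per cell cannot be told apart. In NCS the members' median was 0.07, 0.09 and 0.03 at 4 h, 8 h and 24 h. At 4 h in H2O2, 16 members lay more than 1 above untreated and 30 lay less than 0.7 above it, and the share of all tested genes over 0.58 was 2.25%. The highest of the 7 group means was that of H2O2 at 4 h for 76 members. The exceptions were XBP1, ISL2 and ATRNL1, highest in H2O2 at 8 h, FST and SPHK1, highest in NCS at 4 h, and PSG4, highest in NCS at 24 h.

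**Figure D1:**
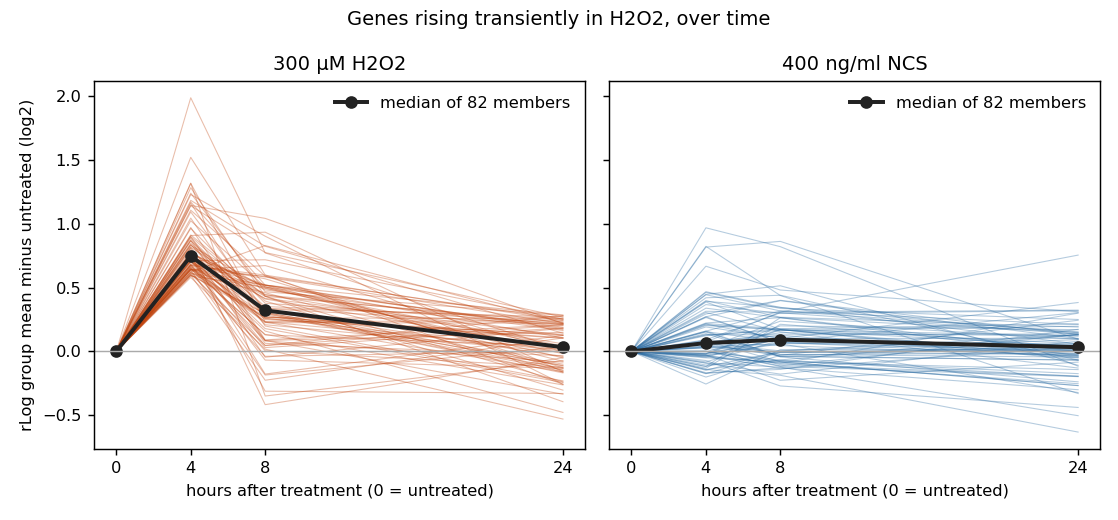
Group mean minus untreated (rLog, log2) for each of the 82 members over hours after treatment, in H2O2 (left) and NCS (right), with the median as a black line. The median in H2O2 goes down from 0.75 through 0.32 to 0.03, and in NCS it stays at or below 0.09.

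The replicates lay close together, with a median SD over members of 0.05 in untreated cells and 0.04 in H2O2 at 4 h. In H2O2 at 8 h it was 0.08, the highest of the 7 groups. There the median of the members above untreated was 0.36 in replicate 1, 0.27 in replicate 2 and 0.38 in replicate 3, so replicate 2 stood lower than the others. At 4 h the same medians were 0.75, 0.76 and 0.74.

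The largest difference at 4 h belonged to CORO2A, which encodes a coronin, a WD-repeat protein that binds actin. Its values were 6.934, 6.958 and 6.996 in the untreated libraries and 8.97, 8.93 and 8.96 in H2O2 at 4 h, a difference of 1.99 or 3.97-fold. In H2O2 it stood at 7.85, 7.54 and 7.81 after 8 h, and at 7.03, 6.95 and 6.95 after 24 h. In NCS the values were 7.40, 7.16 and 7.14 after 4 h, 7.33, 7.40 and 7.35 after 8 h, and 6.98, 7.09 and 7.12 after 24 h. The 4 h libraries of H2O2 lay apart from all others, and those of H2O2 at 24 h overlapped untreated.

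HBEGF, a ligand of the EGF receptor that is shed from the cell surface, came next. Its 3 untreated libraries all stood at 10.88, and those of H2O2 stood at 12.34, 12.40 and 12.47 after 4 h, at 11.55, 11.37 and 11.52 after 8 h, and at 10.60, 10.66 and 10.61 after 24 h. In NCS it was at 11.34, 11.37 and 11.33 after 4 h, at 11.24, 11.20 and 11.23 after 8 h, and at 11.059, 10.9996 and 11.017 after 24 h. HBEGF was thus highest in H2O2 at 4 h, and by 24 h it lay below untreated in H2O2 and above it in NCS.

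**Figure D2:**
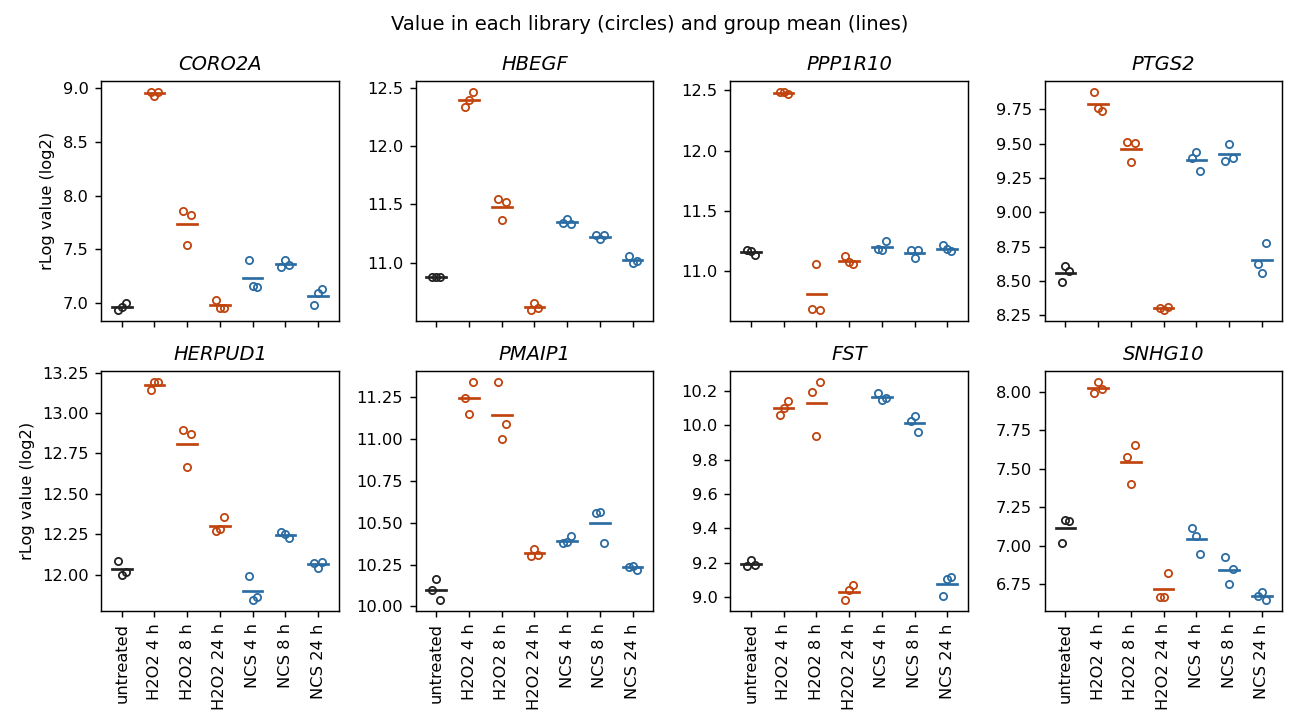
The rLog value (log2) of 8 members in each of the 21 libraries (circles) with the group mean (line), for untreated (black), H2O2 (orange) and NCS (blue). CORO2A, HBEGF, PPP1R10, HERPUD1 and SNHG10 are highest in H2O2 at 4 h, PMAIP1 stays high at 8 h, and FST and PTGS2 are also high in NCS at 4 h and 8 h; each panel has its own vertical range.

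To describe what the members share that the rule did not use, sequences were taken from RefSeq promoters (build GRCh38.p14, 250 bases before to 50 bases after the gene start) and GENCODE 29 transcripts. A promoter was found for 69 of the 82 members. The cyclic AMP response element (CRE) TGACGTCA, the letters that CREB and ATF factors recognise, was searched on both strands. It stood in the promoter of 8 members, or 11.6%, against 3.57% of the genes with a mean of 7 or more and 1.85% of all 35116 promoters. The sites are shown because they let a reader compare the motif and its surroundings, 30 bases each, read in the direction of the gene, with the motif in capitals and its place counted from the gene start.
CHMP1B, chr18:11851356-11851385, plus strand, motif from -46 to -39: gcgctgggctcTGACGTCAccacctgcgcc
MAFF, chr22:38201929-38201958, plus strand, motif from -54 to -47: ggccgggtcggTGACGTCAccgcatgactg
SKIL, chr3:170357650-170357679, plus strand, motif from -54 to -47: cgaggactcggTGACGTCAgagggctgtgt
ZNF295, chr21:42010343-42010372, minus strand, motif from -1 to 7: ctggtgtgggaTGACGTCAaattcaagatg
CSTF3, chr11:33161617-33161646, minus strand, motif from -155 to -148: agccagggtagTGACGTCAgcccaggaatt
IFRD1, chr7:112450397-112450426, plus strand, motif from -100 to -93: cgcccacagagTGACGTCAggtggcggtat
ISL2, chr15:76336725-76336754, plus strand, motif from -37 to -30: ctagtgcgtgtTGACGTCAtgctgcgtgcg
EPHA2, chr1:16156102-16156131, minus strand, motif from -51 to -44: gcgggcgttggTGACGTCAcgcagggcatg
In 5 of the 8, CHMP1B, MAFF, SKIL, ISL2 and EPHA2, the motif began between positions -54 and -37.

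The AP-1 motif TGANTCA, which FOS and JUN dimers recognise, stood in the promoter of 8 members as well, 11.6% against 4.13% of genes with a mean of 7 or more and 7.71% of all promoters. Its stricter form TGACTCA, whose matches are all matches of the looser motif too and which was added after the data had been seen, was found in 6, or 8.7% against 2.73% and 4.95%. On the other strand it reads TGAGTCA. The 6 windows were as follows.
HRH1, chr3:11137156-11137185, plus strand, motif from -71 to -65: tttagtcagacTGAGTCActtcaaggaggg
KCTD11, chr17:7351972-7352001, plus strand, motif from -179 to -173: ggcgacgtgccTGAGTCAccccgtcccgcc
FAM83G, chr17:19004773-19004802, minus strand, motif from -27 to -21: cggggcggcccTGAGTCAccggcgcgcccc
LOC100506190, chr9:129488668-129488697, plus strand, motif from 20 to 26: tctcggggcccTGAGTCAtcgccgcccccg
ABL2, chr1:179143240-179143269, minus strand, motif from -182 to -176: taactccattcTGACTCAgtcttttgcgga
SPHK1, chr17:76383187-76383216, plus strand, motif from -6 to 1: gagcgcgtcgcTGAGTCAccttcccggaac
No member held both the CRE and this strict AP-1 motif. The letters of a TATA box, TATAAA, on either strand and at any position, stood in 10 member promoters, 14.5% against 4.92% and 11.5% of all promoters. The antioxidant response element TGACNNNGC, read by NRF2 with a small MAF partner, went the other way, at 5 members or 7.25% against 15.4% and 13.3%. NF-kB motifs stood in 3 members, 4.35% against 6.42% and 5.91%, and a CArG box, read by serum response factor, in 1, FILIP1L, or 1.45% against 1.06% and 1.29%. A match is a run of letters, not a bound site.

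The 250 bases before the start of PTGS2 and of MAFF are shown as an example of a TATAAA match and of a CRE match. PTGS2, which encodes cyclooxygenase-2, the inducible enzyme of prostaglandin synthesis, had a TATA box (capitals) and no full CRE, whereas MAFF, a small MAF transcription factor, had the CRE (capitals) and no TATAAA.
PTGS2, chr1:186680424-186680673, minus strand: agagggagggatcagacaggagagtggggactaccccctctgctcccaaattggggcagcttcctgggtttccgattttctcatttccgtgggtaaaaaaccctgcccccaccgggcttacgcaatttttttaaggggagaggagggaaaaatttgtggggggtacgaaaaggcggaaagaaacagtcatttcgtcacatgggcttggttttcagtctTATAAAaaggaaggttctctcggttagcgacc
MAFF, chr22:38201744-38201993, plus strand: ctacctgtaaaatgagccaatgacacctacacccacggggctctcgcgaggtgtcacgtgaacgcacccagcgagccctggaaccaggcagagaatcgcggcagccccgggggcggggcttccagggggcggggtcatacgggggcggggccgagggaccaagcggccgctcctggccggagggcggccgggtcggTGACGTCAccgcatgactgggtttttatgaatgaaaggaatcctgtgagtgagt

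The AU-rich nonamer TTATTTATT is the core of the elements that mark short-lived transcripts. It stood in the 3′ UTR of 18 of 71 members with a coding transcript, or 25.4%, against 8.86% of genes with a mean of 7 or more and 7.78% of all tested genes. The median 3′ UTR length was 1.15 kb in the members, 1.19 kb in genes with such a mean and 0.939 kb in all tested genes. The 6 windows below, each 30 bases around the nonamer closest to the stop codon (capitals), come from members that recur in the results.
CSRNP1, chr3:39142884-39142913, minus strand: ttctctggatTTATTTATTtgttttaactt
PTGS2, chr1:186674316-186674345, minus strand: atgatcatatTTATTTATTtatatgaacca
PMAIP1, chr18:59903961-59903990, plus strand: aggaataattTTATTTATTttgcctattta
MAFF, chr22:38215914-38215943, plus strand: tccccactgtTTATTTATTgcacggatcta
FST, chr5:53486135-53486164, plus strand: aagtgtatgcTTATTTATTtggggggaaaa
CD274, chr9:5469538-5469567, plus strand: tttgctatttTTATTTATTttagtgtttct
FST had 3 such nonamers, MAFF, CD274 and INHBA had 2 each, and the remaining 14 had 1 each. The nonamer was found both in members that had lost most of their 4 h difference by 8 h, such as CSRNP1, and in members that had kept it, such as PMAIP1 and FST.

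**Figure D3:**
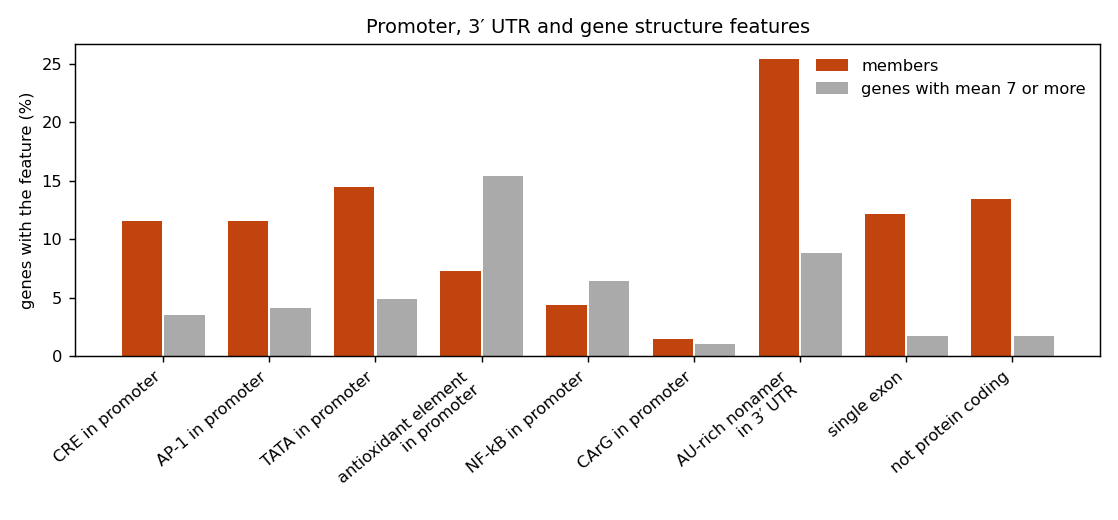
Share (%) of members (orange) and of genes with a mean of 7 or more (grey) with each feature; promoter motifs over 69 members, the AU-rich nonamer over 71, and single exon and gene type over 82. CRE, AP-1, TATA, the nonamer, a single exon and a noncoding type are each at a higher share in the members, and the antioxidant element at 7.25% against 15.4%.

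The members had short gene spans and few exons. The median gene span was 22.0 kb against 34.2 kb for genes with a mean of 7 or more and 27.3 kb for all tested genes, and the median exon number was 6 against 9 and 8. The median transcript length, 3.18 kb, lay between 3.33 kb and 2.75 kb. A single exon was annotated for 10 members, 12.2% against 1.76% of genes with such a mean and 8.15% of all tested genes, among them CHMP1B, FOXC1, KCTD11 and MC1R. GENCODE gave 11 members a type other than protein coding, 13.4% against 1.72% and 11.5%, so that the members were near the share of all tested genes here. These included the small nucleolar RNA (snoRNA) host genes SNHG7, SNHG10 and DANCR, KCNQ1OT1, HOTAIRM1 and LOC284454, now named MIR23AHG, the host of a microRNA cluster. For 10 members the start lay within 20 kb after the end of another gene with a mean of 7 or more on the same strand, 12.2% against 20.8%. For CORO2A that gene was TBC1D2, 6.36 kb before it, whose difference from untreated was 0.19 at 4 h and 0.97 at 8 h in H2O2. The authors prepared stranded libraries, but the strand setting used in counting is not given in the sources used here. FAM83G and SLC5A10 overlap each other on opposite strands, and NAB2, PPP1R13L and SNHG10 overlap STAT6, CD3EAP and GLRX5, so reads of these 5 members and their partners may be mixed.

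The 8 h libraries of H2O2 were not used to choose the members except in the mean over 21. Relative to untreated, 46 members were over 0.29 at 8 h, 56.1% against 5.59% of all tested genes and 8.58% of those with a mean of 7 or more, and 3 were under -0.29, 3.66% against 5.74% and 9.96%. This comparison shares the untreated libraries with the rule and has no test. As a share of its 4 h difference, the median member had 39.3% left at 8 h, with quartiles of 19.2% and 61.7%. For 14 members 75% or more was left, for another 14 between 50% and 75%, for 28 between 25% and 50%, for 17 less than 25%, and 9 lay below untreated.

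The 5 members with the largest share left were ISL2, ATRNL1, FST, XBP1 and IFRD1. ISL2, a LIM homeobox factor, had 133% of its 4 h difference at 8 h, ATRNL1 105%, FST 103%, XBP1 101% and IFRD1 91.9%. In ISL2 the untreated libraries stood at 6.999, 7.045 and 6.974, and those of H2O2 at 7.68, 7.54 and 7.68 after 4 h and at 7.96, 7.69 and 7.86 after 8 h. The 8 h libraries lay above those of 4 h.

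The 5 with the smallest share were PCF11, FILIP1L, ZFC3H1, KRCC1 and PPP1R10, all of them below untreated at 8 h. PPP1R10 encodes PNUTS, the nuclear subunit of protein phosphatase 1 that acts in transcription termination. Its untreated libraries stood at 11.18, 11.17 and 11.14, and those of H2O2 at 12.48, 12.49 and 12.47 after 4 h, at 10.69, 11.06 and 10.68 after 8 h, and at 11.13, 11.08 and 11.06 after 24 h. PPP1R10 thus went from 1.32 above untreated to 0.35 below it within 4 h, and replicate 2 of the 8 h group was the nearest to untreated. PCF11, a subunit of the complex that cleaves the 3′ ends of mRNA, stood at 10.10, 10.13 and 10.15 in untreated cells, at 10.92, 10.96 and 10.93 in H2O2 at 4 h, and at 9.54, 9.97 and 9.62 after 8 h. Its SD of 0.23 at 8 h was the highest of any member in any group.

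**Figure D4:**
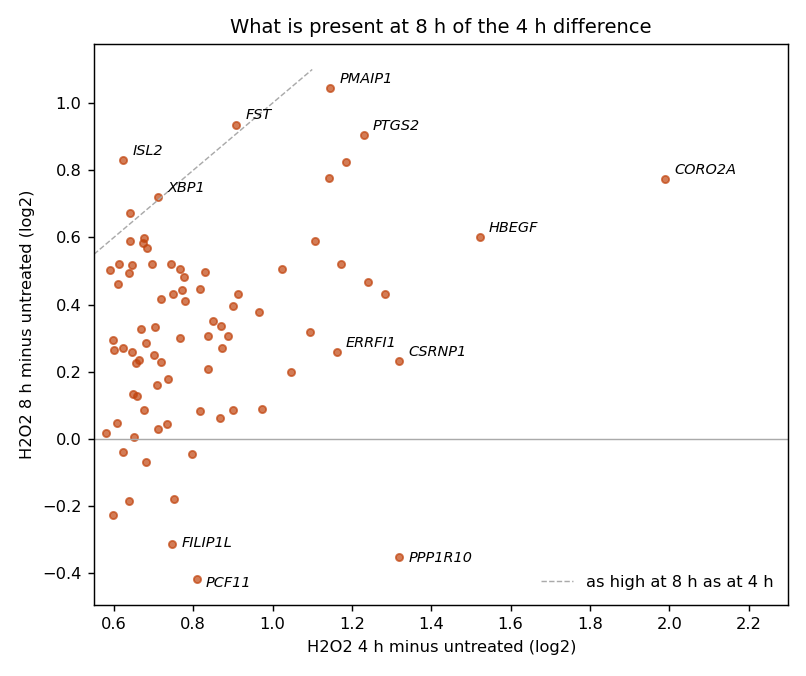
Difference from untreated (rLog, log2) in H2O2 at 8 h against that at 4 h, 1 point per member; the dashed line marks equal differences. FST, XBP1 and ISL2 are on or above the line, PMAIP1 and PTGS2 below it and among the highest at 8 h, HBEGF, CORO2A and CSRNP1 far below it, and PPP1R10, PCF11 and FILIP1L are below 0 at 8 h.

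To determine whether the members differed between the stresses at a time the rule used only for the mean, H2O2 and NCS were compared at 8 h. This was done in a limma fit over all tested genes. A gene was called at an adjusted p below 0.05 (Benjamini-Hochberg) with a difference over 0.29. Of the 82 members, 30 were called higher in H2O2, 36.6% against 4.67% of all tested genes and 7.08% of those with a mean of 7 or more. Another 5 were called lower, 6.1% against 3.51% and 5.88%. The median difference of the members was 0.20, against 0.00 for all tested genes. In 56 members all libraries of H2O2 lay above all those of NCS, 68.3% against 21.5% of tested genes, and in 8 all lay below, 9.76% against 19.3%. With 3 libraries a group, an exact permutation test cannot give a p below 0.1, and these 64 members had that value. Leaving out single replicates gave 26 to 35 members called higher and 3 to 6 lower, with 35 and 6 without replicate 2 of H2O2 at 8 h and 3 lower without its replicate 3.

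The largest of these differences was that of ISL2, at 0.76 ± 0.07 (SE, adjusted p = 2.02e-07, limma). The host gene SNHG10 followed at 0.70 ± 0.07, then DNHD1, a dynein heavy chain domain gene, at 0.66 ± 0.07, PMAIP1 at 0.64 ± 0.07, ATRNL1 at 0.59 ± 0.08 and HERPUD1 at 0.56 ± 0.05. In all 6 the libraries of the 2 stresses did not overlap. SNHG10, with a mean of 7.14, passed the limit of 7 only through its H2O2 libraries at 4 h. FILIP1L had the most negative difference, -0.39 ± 0.05 (adjusted p = 1.62e-05, limma). It was followed by CD274 at -0.36 ± 0.05, KRCC1 at -0.35 ± 0.05, PPP1R10 at -0.34 ± 0.06 and HIVEP1 at -0.30 ± 0.04. The call of HIVEP1 and that of PPP1R10 were each lost without either of 2 single replicates. Members that were high at 4 h in H2O2 could thus be below NCS 4 h later.

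**Figure D5:**
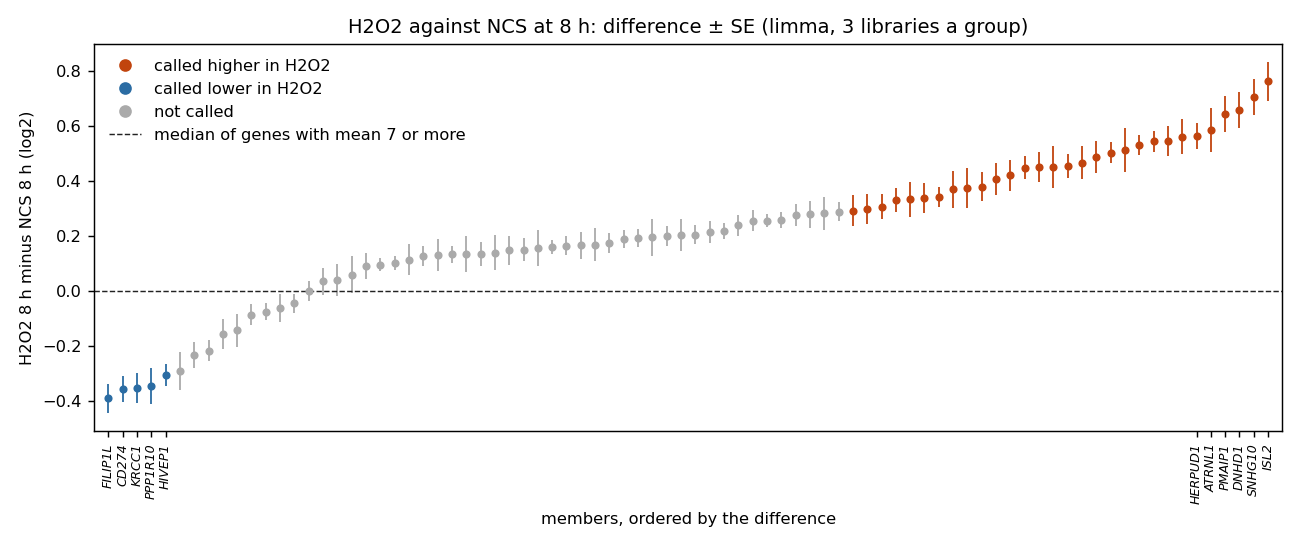
Difference between H2O2 and NCS at 8 h (rLog, log2, mean of 3 libraries each) for the 82 members in order (the 6 highest and 5 lowest named), with the SE of the limma fit; orange marks members called higher in H2O2, blue those called lower and grey those not called. The differences run from -0.39 (FILIP1L) to 0.76 (ISL2), and the dashed line is the median of genes with a mean of 7 or more.

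To determine whether the members also changed over time after NCS, in libraries that the rule used only for the mean, the 3 NCS times were compared. Between 4 h and 24 h, 18 members were called higher at 4 h, 22.0% against 7.56% of all tested genes and 13.2% of those with a mean of 7 or more, and 5 were called lower, 6.1% against 5.71% and 9.14%. Between 8 h and 24 h, 10 were called higher at 8 h, 12.2% against 4.55% and 8.11%, and 3 lower, 3.66% against 2.99% and 4.83%. Between 4 h and 8 h only SPHK1 was called higher at 4 h, 1.22% against 1.29% and 2.24%, and only HERPUD1 and XBP1 lower, 2.44% against 0.884% and 1.39%. With all libraries, the shares called lower at 4 h or at 8 h than at 24 h lay between both backgrounds. The count lower at 8 h than at 24 h was not stable. It was 5, or 6.1% and above both backgrounds, without replicate 1 of NCS at 8 h and also with library medians aligned.

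SPHK1, which makes the lipid signal sphingosine 1-phosphate, had the largest difference, 1.15 ± 0.06 (adjusted p = 9.72e-12, limma). Its NCS libraries stood at 11.57, 11.44 and 11.39 after 4 h, at 11.04, 11.06 and 11.15 after 8 h, and at 10.31, 10.32 and 10.31 after 24 h. FST followed at 1.09 ± 0.06, PTGS2 at 0.72 ± 0.06, CD274 at 0.56 ± 0.05, MIS12, a kinetochore gene, at 0.49 ± 0.03, and GADD45B at 0.49 ± 0.04. In all 6 the libraries of 4 h lay above those of 24 h. The 5 called lower at 4 h were PSG4, a pregnancy-specific glycoprotein gene, at -0.68 ± 0.03, ERRFI1 at -0.45 ± 0.03, the axonemal dynein gene DNAH10 at -0.43 ± 0.06, ZFC3H1 at -0.34 ± 0.04 and the complement protease gene C1S at -0.33 ± 0.06, whose call was lost without replicate 1 of NCS at 24 h (-0.28). In NCS these 5 were highest at 24 h, unlike in H2O2.

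Relative to untreated, which the rule used, 17 members were over 0.29 in NCS at 4 h, 20.7% against 1.73% of all tested genes and 2.77% of those with a mean of 7 or more. At 8 h 17 were over it as well, against 2.34% and 3.84%. At 24 h there were 7, or 8.54% against 5.78% and 9.25%, so the members' share was then below that of genes with such a mean. None was under -0.29 at 4 h, against 2.1% and 3.61%, or at 8 h, against 3.54% and 6.13%, and 6 were at 24 h, 7.32% against 7.81% and 13.6%. At 4 h, 75 members were more than 0.29 higher with H2O2 than with NCS, against 6.82% and 5.59%, a direction that the choice of members favours. The other 7 were FST, CD274, SPHK1, PTP4A1, INHBA, HIVEP1 and EPHA2. At 24 h 1 member was more than 0.29 higher in H2O2, against 1.95% and 2.87%, and HBEGF, PTGS2, FILIP1L, CD274 and PSG4 were lower, against 1.81% and 2.99%.

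The results are described below by the roles of the members, with gene lists chosen when earlier results of these data were known. Of the 82 members 43 stood in a list. Over all genes with a mean of 7 or more, 0.818% were members. Members and genes over 0.58 at 4 h were counted among listed genes with such a mean, and medians and calls over all tested genes of a list. The calls at 8 h stand beside 4.67% higher and 3.51% lower over all tested genes, and 7.08% and 5.88% over those with such a mean, and a count of 1 or 2 in a list is near these shares.

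Of the EGF receptor ligands and MAP kinase feedback genes, 12 of 18 had a mean of 7 or more, and 4 were members. HBEGF is the ligand, and ERRFI1, also known as MIG6, is an inhibitor of the EGF receptor kinase. ERRFI1 stood at 12.10, 12.09 and 12.07 in untreated cells and at 13.25, 13.24 and 13.25 in H2O2 at 4 h, then at 12.44, 12.23 and 12.35 after 8 h. In NCS it was at 11.90, 11.89 and 11.86 after 4 h and at 12.33, 12.35 and 12.31 after 24 h, so that it was below untreated early and above it late. SPRY2, an inhibitor of signalling from receptor tyrosine kinases, was 0.66 above untreated at 4 h in H2O2 and 0.13 at 8 h. EPHA2, a receptor tyrosine kinase, was 0.61 above it at 4 h and 0.52 at 8 h, and in NCS it was called higher at 4 h than at 24 h, by 0.33 ± 0.04. At 8 h, 4 of the 18 listed genes, AREG, EREG, SPRED2 and PHLDA1, were called higher with H2O2 than with NCS and none lower, and none of the 4 members was called. The median of the list at 4 h in H2O2 was 0.05.

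Transcription factors outside the families left out made the largest group, with 10 members among 27 listed genes with a mean of 7 or more. CSRNP1, a nuclear protein of the cysteine- and serine-rich family, stood at 9.31, 9.25 and 9.37 in untreated cells, at 10.66, 10.65 and 10.58 in H2O2 at 4 h, and at 9.50, 9.54 and 9.59 after 8 h. It had 17.6% of its 4 h difference left at 8 h. The small MAF factors MAFK and MAFF were 1.09 and 1.02 above untreated at 4 h. For MAFF the H2O2 libraries at 8 h stood at 10.951, 10.775 and 11.003, whereas those of NCS stood at 10.42, 10.40 and 10.40, a difference of 0.50 ± 0.04 (adjusted p = 1.63e-08, limma). For MAFK the same difference was 0.15 ± 0.05 and was not called. HLX, FOXC1 and ETS2 were 0.90, 0.78 and 0.77 above untreated at 4 h, and each was called higher with H2O2 than with NCS at 8 h, by 0.49, 0.45 and 0.45. NAB2, a corepressor of EGR factors, was 0.75 above untreated at 4 h and 0.18 below it at 8 h. Of the 29 listed genes, 8 were called higher with H2O2 than with NCS at 8 h and 1, HIVEP1, lower, and the median at 4 h was 0.62.

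For the endoplasmic reticulum (ER) stress and integrated stress response, 22 genes were listed, of which 12 were over 0.58 at 4 h but only 3 came back by 24 h. HERPUD1, a membrane protein of ER-associated degradation, stood at 12.083, 11.999 and 12.018 in untreated cells, at 13.15, 13.19 and 13.19 in H2O2 at 4 h, at 12.89, 12.66 and 12.87 after 8 h, and at 12.27, 12.28 and 12.35 after 24 h. XBP1, a transcription factor of the unfolded protein response, was 0.71 above untreated at 4 h and 0.72 at 8 h. EIF2AK3, the eIF2α kinase PERK, was 0.60 above it at 4 h and 0.30 at 8 h. In NCS, HERPUD1 and XBP1 were called lower at 4 h than at 8 h, by -0.34 ± 0.05 and -0.38 ± 0.04. Of the 22 genes, 12 were called higher with H2O2 than with NCS at 8 h and none lower. The list's median in H2O2 was 0.61, 0.61 and 0.24 at 4 h, 8 h and 24 h. Among the listed genes that were not members, ATF4, which encodes the factor that eIF2α phosphorylation allows to be translated, was 0.92 above untreated at 4 h and 0.55 at 24 h.

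Genes that act at the 3′ ends of mRNA gave 3 members, PPP1R10, PCF11 and CSTF3, of 23 with a mean of 7 or more, and no other listed gene with such a mean was over 0.58 at 4 h. CSTF3, a subunit of the cleavage stimulation factor, was 0.68 above untreated at 4 h and 0.07 below it at 8 h. All 3 were thus below untreated at 8 h. ZFC3H1, which links nuclear polyadenylated RNA to the exosome and stands in no list, was 0.60 above it at 4 h and 0.23 below it at 8 h. The list's median was -0.04 at 4 h and -0.05 at 8 h, and 1 gene was called higher and 1, PPP1R10, lower with H2O2 than with NCS at 8 h. None of the 16 SR proteins and CLK kinases, which act in splicing, was a member or over 0.58 at 4 h, and 5 of them were called higher with H2O2 than with NCS at 8 h.

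Of the snoRNA host genes, 3 of 13 with a mean of 7 or more were members. One of these, SNHG10, had such a mean only through its H2O2 libraries at 4 h. SNHG10 stood at 7.02, 7.17 and 7.16 in untreated cells, at 8.00, 8.07 and 8.02 in H2O2 at 4 h, at 7.58, 7.40 and 7.66 after 8 h, and at 6.67, 6.67 and 6.82 after 24 h, below untreated. SNHG7 was 0.65 above untreated at 4 h and 0.52 at 8 h, and DANCR 0.64 and 0.49. At 8 h all 3 were called higher with H2O2 than with NCS, DANCR by 0.53 ± 0.04 (adjusted p = 4.25e-09, limma) and SNHG7 by 0.56 ± 0.06. Of the 16 genes tested in this list, 10 were called higher and none lower, against 4.67% and 3.51% of all tested genes. The 16 include RPPH1, which is not a snoRNA host gene and was not called.

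The TGF-beta family list gave 3 members of 19 with a mean of 7 or more. SKIL, also known as SnoN, is a corepressor of SMAD factors, INHBA is the subunit of activin A, and FST (follistatin) binds activin. FST stood at 9.18, 9.21 and 9.19 in untreated cells, at 10.06, 10.10 and 10.14 in H2O2 at 4 h, and at 10.20, 9.94 and 10.25 after 8 h. In NCS it was at 10.19, 10.15 and 10.16 after 4 h, at 10.03, 10.05 and 9.96 after 8 h, and at 9.01, 9.11 and 9.12 after 24 h. FST was thus high at 4 h and 8 h of both agents. The difference between them at 8 h was 0.11 ± 0.06 (adjusted p = 0.140, limma) and their libraries overlapped. INHBA was 0.67 above untreated at 4 h in H2O2 as well as in NCS. SKIL was 0.96 and 0.27 above it, and at 8 h it was called higher with H2O2 than with NCS by 0.31 ± 0.05. This call was lost without replicate 1 of H2O2 (0.26) and without replicate 3 of NCS (0.27). Of the 22 listed genes, 5 were called higher and 2 lower in that comparison, with a list median of 0.15 at 4 h in H2O2.

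Of the secreted signals and the enzymes that make them, PTGS2 and SPHK1 were members, of 13 genes with a mean of 7 or more. PTGS2 stood at 8.50, 8.61 and 8.57 in untreated cells. In H2O2 it was at 9.88, 9.76 and 9.73 after 4 h, at 9.51, 9.37 and 9.51 after 8 h, and at 8.30, 8.29 and 8.31 after 24 h. In NCS it was at 9.39, 9.44 and 9.30 after 4 h, at 9.37, 9.50 and 9.40 after 8 h, and at 8.62, 8.56 and 8.78 after 24 h. At 8 h the agents differed by 0.04 ± 0.06 (adjusted p = 0.665, limma), and at 24 h PTGS2 was below untreated in H2O2 only. Of the 23 listed genes tested, 6 were called higher and 2 lower with H2O2 than with NCS at 8 h. The NF-kB list gave 2 members of 20, IRAK2, a kinase of interleukin-1 signalling, 0.78 above untreated at 4 h, and CD274, the immune checkpoint ligand PD-L1. CD274 stood at 9.39, 9.46 and 9.38 in untreated cells, at 10.09, 10.15 and 10.12 in H2O2 at 4 h, at 9.53, 9.60 and 9.58 after 8 h, and at 8.97, 8.81 and 9.02 after 24 h. In NCS its 8 h libraries stood at 9.98, 9.83 and 9.96. Of the 23 genes in this list, 1 was called higher and 4 lower with H2O2 than with NCS at 8 h, against 4.67% and 3.51% of all tested genes. In NCS 11 were called higher and none lower at 4 h than at 24 h, against 7.56% and 5.71%.

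PMAIP1 encodes NOXA, a BH3-only protein that promotes apoptosis. It was the only member among 31 p53 target genes with a mean of 7 or more, of which 17 were over 0.58 at 4 h. Its untreated libraries stood at 10.10, 10.16 and 10.04, and those of H2O2 at 11.25, 11.15 and 11.34 after 4 h, at 11.341, 11.001 and 11.091 after 8 h, and at 10.30, 10.34 and 10.31 after 24 h. In NCS it was at 10.38, 10.39 and 10.42 after 4 h, at 10.56, 10.56 and 10.38 after 8 h, and at 10.24, 10.24 and 10.22 after 24 h. The list's median in H2O2 was 0.60, 0.91 and 0.79 at 4 h, 8 h and 24 h. PMAIP1 was 0.22 above untreated at 24 h, where the rule chose members by a value under 0.29. All its H2O2 libraries of 24 h still lay above all the untreated ones. In that list 7 genes were called higher and 4 lower with H2O2 than with NCS at 8 h. GADD45B, a stress sensor that binds the kinase MTK1 upstream of JNK and p38, was the only member of its list of 14. It stood at 11.27, 11.33 and 11.36 in untreated cells and at 12.43, 12.42 and 12.44 in H2O2 at 4 h, and in NCS at 11.74, 11.75 and 11.73 after 4 h. In this list 2 genes were called higher and 1 lower at 8 h.

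The NRF2 target genes, which answer to oxidants, held no member among the 23 with a mean of 7 or more, of which 3 were over 0.58 at 4 h in H2O2. ABCC2, an export pump and the other listed gene, was 1.71 above untreated at 4 h and 0.15 at 24 h, and its mean of 5.40 kept it out of the members. Over all 24 genes the list's median in H2O2 was 0.21, 0.44 and 0.28 at 4 h, 8 h and 24 h, and 15, ABCC2 among them, were called higher and none lower than in NCS at 8 h. Of the sugar phosphate and glycolysis genes 2 of 17 were members, and both encode enzymes of early glycolysis or its control. PFKFB3, which makes the activator of phosphofructokinase, was 0.89 above untreated at 4 h in H2O2 and 0.39 in NCS. HK2, a hexokinase, was 0.84 above it in H2O2 and 0.26 below it in NCS at 4 h, its NCS libraries standing at 8.57, 8.73 and 8.64 against 8.85, 8.86 and 8.99 in untreated cells. At 8 h, 2 of the 18 genes tested in that list were called higher and 1 lower with H2O2 than with NCS, against 7.08% and 5.88% of genes with a mean of 7 or more.

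Of the actin, adhesion and small GTPase genes 5 of 15 were members. Beside CORO2A they included DSP, which encodes desmoplakin of the desmosome and was 0.83 above untreated at 4 h, BAIAP2, also known as IRSp53, 0.75, and the tyrosine kinase ABL2, 0.70. In this list 7 genes were called higher and 1 lower with H2O2 than with NCS at 8 h. Among ubiquitin and heat-shock cofactors 3 of 16 were members, among them CHMP1B, a component of the ESCRT-III complex, 1.17 above untreated at 4 h, and the ubiquitin ligase SIAH2, 0.72 above it. In that list 4 genes were called higher and none lower at 8 h. Of the 15 genes in the list of mRNA decay factors only IFRD1, better known as a transcriptional coregulator, was a member, 0.64 above untreated at 4 h and 0.59 at 8 h, and 6 were called higher and none lower at 8 h. Zinc finger symbols gave 1 member of 337 with a mean of 7 or more, ZNF295, or 0.297%, and uncharacterised symbols 7 of 495, or 1.41%.

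At the 4 h and 24 h limits of the rule the values ran on without a gap. At 4 h, MIS12 (0.58), SOWAHC (0.59) and ZFC3H1 (0.60) were just inside and KITLG (0.58), VASN (0.57) and C9orf37 (0.56) just outside. At 24 h, CHMP1B (0.29) and C1S (0.28) were just inside and IL11 (0.29), AMIGO2 (0.30) and ADAMTSL4 (0.30) just outside. For the mean the nearest genes stood further from the limit. PSCA (7.11), SNHG10 (7.14) and KCNQ1OT1 (7.15) were inside and LOC100506233 (6.94), IL32 (6.80) and C5orf45 (6.75) outside. PSCA and SNHG10 were inside only through their H2O2 libraries at 4 h.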

How the data were processed

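The authors aligned the reads with HISAT2 to hg19, counted them per gene with HTSeq and deposited rLog values made with DESeq2 over all 21 libraries. The versions and the annotation are not given in the sources used here. These deposited log2 values carry no read totals, so depth is unknown and no count model was run. The 3674 genes at 0 in every library were left out. All 7 groups entered a limma fit (version 3.58.1) whose variance followed a trend with the mean; it gave 4 comparisons that the rule did not use, with Benjamini-Hochberg adjustment over 19694 genes. The fit was tested on simulated data beforehand. For 6 further comparisons only differences and counts past 0.29 were taken. The members, the 16 gene lists and 2 symbol classes were chosen with earlier results of these data known. Genes named with values were the 12 largest at 4 h, up to 6 members a list, up to 6 called members in each direction for H2O2 against NCS at 8 h and for NCS at 4 h against 24 h, the 5 highest and lowest shares at 8 h, and the 3 genes on each side of each limit. Others named were chosen after their values were seen, and a few members are not reported here by name. Reference genes of RefSeq and GENCODE were matched by symbol, and all 82 members had a GENCODE gene. The table holds 28 symbols turned into dates, none of them members.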

Additional observations from a re-analysis of the deposited data

How the results depend on the processing

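With other limits in place of 0.29, members called higher with H2O2 than with NCS at 8 h numbered 5 (over 0.58, 0.711% of tested genes), 0 (over 1) and 58 (adjusted p alone, 18.7%), and those lower 0, 0 and 9. For NCS at 4 h against 24 h they numbered 3, 2 and 38 higher and 1, 0 and 15 lower, for 4 h against 8 h 0, 0 and 11 higher and 0, 0 and 12 lower, and for 8 h against 24 h 4, 0 and 32 higher and 0, 0 and 11 lower. The cause was the limit itself. With library medians aligned, 5 in place of 3 were lower in the last comparison, and the cause was not tested. Against untreated, over 0.58 in place of 0.29 left 14 members higher and 0 lower in H2O2 at 8 h, 4 higher in NCS at 4 h, 2 at 8 h, and 1 higher and 1 lower at 24 h. At 24 h of H2O2 against NCS it left 0 higher and 1 lower, and aligned medians 0 higher. Quantile normalization or aligned medians put 1 member under -0.29 in NCS at 8 h, and quantile normalization put 3 at 24 h. A 4 h limit of 0.7 gave 52 members. Quantile normalization gave 84, of which 75 were among the 82, and aligned medians 84, of which 80 were.

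Leaving out single replicates gave 77 to 86 members. In the comparisons as listed, members called higher numbered 26 to 35, 16 to 18, 1 and 8 to 12, and lower 3 to 6, 4 to 6, 2 to 3 and 3 to 5. The count lower in H2O2 at 8 h was 3 without replicate 3 of H2O2, and that lower at 8 h than at 24 h of NCS was 5 without replicate 1 of NCS at 8 h. Against untreated, H2O2 at 8 h gave 43 to 50 over 0.29 and 1 to 3 under -0.29 (1 without its replicate 3), NCS 15 to 18 at 4 h and at 8 h, 0 to 1 under -0.29 at both, and 5 to 7 over and 5 to 8 under at 24 h. H2O2 against NCS gave 75 to 77 over 0.29 at 4 h, and 0 to 2 over and 5 to 6 under at 24 h. Single replicates decided the calls of HIVEP1, HK2, PPP1R10 and SKIL at 8 h and of C1S and ETS2 in NCS.

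Same-numbered libraries of H2O2 and NCS at 8 h deviated together with correlations of 0.192, 0.038 and 0.189, and with 1 of the 3 near 0 they were not taken as paired. With the replicate block the calls numbered 30 higher and 5 lower, and 18 and 5, 1 and 2, and 10 and 3 in the NCS comparisons. Removing the variance trend, testing only genes with a mean of 5 or more, or fitting only 2 groups left each of these counts within 1.5 times. rLog values hold no read totals, so what depth limits could not be measured.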
